A study of Arabidopsis thaliana with 12 samples.

Results

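The glucosinolate synthesis genes described here are 10 genes of Arabidopsis, picked by gene identifier from the 69056 features that the expression tables list. The aliphatic branch is represented by MYB28, MYB29, MAM1, CYP79F1 and CYP83A1, and the indolic branch by MYB34, MYB51, CYP79B2, CYP79B3 and CYP83B1. All 10 passed the filter on low values and were among the 23614 features tested.

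Glucosinolates are sulfur-containing defence compounds of the cabbage family. Aliphatic ones are built from methionine, whose side chain is first lengthened, and indolic ones from tryptophan. In each branch an R2R3 MYB transcription factor turns on the enzymes, a CYP79 cytochrome P450 makes an aldoxime from the amino acid, and a CYP83 cytochrome P450 carries the aldoxime onward. The aldoxime made from tryptophan is also a precursor of camalexin, an antimicrobial compound, and of some auxin. When tissue is damaged, myrosinases cut the stored glucosinolates, and specifier proteins steer the products.

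RNA of whole seedlings grown for 10 days at 22 °C under 16 h of light and 8 h of dark was sequenced in 6 groups of 2 replicates, giving 12 libraries. V1200R/cc lines 9 and 15 carry a genomic CMT2 transgene whose methyltransferase has the V1200R substitution, and CMT2/cc lines 1 and 19 carry the same transgene without it. CMT2 and CMT3 are DNA methyltransferases of the chromomethylase family, which methylate cytosines outside CG sites and are known for silencing transposable elements. Both transgenes use the native CMT2 promoter, end in a FLAG tag and were put into the cc background. According to the labels and methods, the libraries labelled cc come from plants with the T-DNA alleles cmt2-7 and cmt3-11 in Col-0, the 4 transgenic lines were made in that background, and Col-0 is the wild type. Each transgenic line is 1 independent transformant, so a line and its insertion site cannot be told apart. The labels do not say whether the 2 replicates of a group are separate cultures, so p-values measure the spread between these libraries, which may be technical.

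CMT2 was at 112 and 127 TPM in V1200R/cc line 9, 146 and 159 TPM in line 15, 114 and 123 TPM in CMT2/cc line 1, 79.6 and 80.8 TPM in line 19, against 1.70 and 1.99 TPM in the libraries labelled cc and 15.002 and 13.3 TPM in Col-0 (TPM is a transcript level scaled for gene length and library total). CMT2 itself was called higher in V1200R/cc against CMT2/cc (log2 fold change 0.47, SE 0.065, adjusted p = 0.00093, limma). That comparison thus also differs in CMT2 level, and the part of this level in the members' results was not tested. CMT3 was at 16.4 and 14.0 TPM in the libraries labelled cc, against 12.9 and 11.5 TPM in Col-0, so its transcript was not lower there. In the 4 transgenic lines CMT3 lay between 4.72 and 7.02 TPM and each line was called lower against cc, with log2 fold changes of -1.20 to -1.51 (adjusted p between 0.00015 and 0.00075, limma). CMT3 thus differs between the libraries labelled cc and the 4 lines made in that background. Transcript level alone does not tell which allele is present. Whether the libraries labelled cc and the 4 lines share the same CMT3 allele cannot be read from these data. In every comparison, cc stands for the libraries labelled cc. The tables imply between 929.5 and 1453.0 megabases of aligned sequence a library. The members had mean read coverage between 3.61, for MYB51 in CMT2/cc line 19, and 176, for MAM1. In bulk seedlings, fewer cells of a type and less RNA per cell cannot be told apart.

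The promoters of 4 members are shown because the results below turn on MYB51, on the unequal pair CYP79B2 and CYP79B3, and on CYP83A1. Each run is the 250 bases before the gene start, 5′ to 3′ on the strand of the gene, from the RefSeq TAIR10.1 genome, in which 27430 of 27444 shared protein-coding genes had the same start and end as in the files. The MYB51 run is chr1:6389149-6389398 on the plus strand, with the W-box core TTGAC in capitals, read on both strands (GTCAA on the other). The CYP83A1 run is chr4:7992430-7992679 on the minus strand, with the G-box CACGTG in capitals. The CYP79B2 run is chr4:18524792-18525041 and the CYP79B3 run chr2:9488163-9488412, both on the plus strand, with the longest stretch identical between them in capitals.
MYB51: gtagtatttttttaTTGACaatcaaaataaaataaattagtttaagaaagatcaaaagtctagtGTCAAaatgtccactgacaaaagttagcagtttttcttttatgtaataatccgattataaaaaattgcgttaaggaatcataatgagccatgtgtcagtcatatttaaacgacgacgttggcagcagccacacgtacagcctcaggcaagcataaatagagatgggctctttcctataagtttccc
CYP83A1: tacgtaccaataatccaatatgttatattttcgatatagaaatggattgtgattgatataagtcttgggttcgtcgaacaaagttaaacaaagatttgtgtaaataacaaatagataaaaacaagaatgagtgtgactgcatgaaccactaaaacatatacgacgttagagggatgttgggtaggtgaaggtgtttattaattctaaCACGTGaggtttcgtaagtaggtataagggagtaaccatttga
CYP79B2: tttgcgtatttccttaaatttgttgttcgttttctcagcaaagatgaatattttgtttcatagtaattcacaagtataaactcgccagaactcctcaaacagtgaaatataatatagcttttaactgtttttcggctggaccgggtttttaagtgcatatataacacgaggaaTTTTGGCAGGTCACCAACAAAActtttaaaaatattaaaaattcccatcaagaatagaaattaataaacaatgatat
CYP79B3: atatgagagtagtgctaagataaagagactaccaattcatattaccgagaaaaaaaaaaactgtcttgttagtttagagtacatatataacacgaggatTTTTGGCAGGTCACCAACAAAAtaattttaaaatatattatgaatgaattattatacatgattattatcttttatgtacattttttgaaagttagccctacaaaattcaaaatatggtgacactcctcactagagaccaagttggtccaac

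The MYB51 promoter held 2 W-box cores, starting 236 and 186 bases before the gene, and was the only one of the 10 to hold any, whereas 44.9% of 27443 promoters of this length had at least 1. WRKY factors bind the W-box, which is TTGAC followed by C or T. Both cores before MYB51 are followed by A on their strand, so neither is a full W-box. The G-box, a site of bHLH and bZIP factors, began 43 bases before CYP83A1, was in no other member and was in 6.49% of all promoters. The GCC-box core GCCGCC, a site of ERF factors, was in none of the 10 and in 1.87% of all. The stretch shared by CYP79B2 and CYP79B3 was 22 bases long and began 77 bases before CYP79B2 and 151 bases before CYP79B3, while the longest shared stretch in the 44 other pairs of members was between 7 and 13 bases. These matches describe letters and show no binding.

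Across the 10 members, the V1200R/cc lines stood apart from the CMT2/cc lines mainly in 1 gene, MYB51, which was 3.23-fold higher. In the comparison of V1200R/cc with CMT2/cc, 5 of 10 members passed an adjusted p below 0.05 (limma on log2(TPM + 0.5), Benjamini-Hochberg over all features tested), against 27.5% of all features. MYB51 and CYP79B3, both indolic, rose, and MYB29, CYP79F1 and CYP83A1, all aliphatic, fell. Of all features 13.6% were called higher and 13.9% lower. Only MYB51 also changed by at least 2-fold, as 3.1% of all features did. The median log2 fold change was -0.27 over the 5 aliphatic members and 0.12 over the 5 indolic members, and -0.02 over all features tested.

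This comparison takes the mean of the 2 lines of each construct, and its spread is that between libraries of one line. Between the lines of one construct no member was called, whether between V1200R/cc lines 15 and 9 (0.0212% of all features called) or between CMT2/cc lines 19 and 1 (0.182% called). At an unadjusted p below 0.05, 1 of 10 members differed in each of these comparisons, and the share of all features at that threshold is not given. With the line as the unit there are 2 values against 2, for which the smallest p of a two-sided exact permutation test is 0.333.

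Against cc, 2 members were called in V1200R/cc line 9 (8.83% of all features) and 2 in line 15 (13.7%). MYB51 rose in both lines, MYB34 fell in line 9 and CYP79F1 fell in line 15. No member was called in CMT2/cc line 1 (4.02% of all features) or line 19 (3.04%) by limma. There, 2 and 3 members had an unadjusted p below 0.05. The share of all features at that threshold is not given, so these counts cannot be judged. None was called in cc against Col-0 (4.44% of all features), where no member had an unadjusted p below 0.05 and the log2 fold changes lay between -0.20 and 0.22. The comparisons with cc share the 2 libraries labelled cc, whose CMT3 level differs from that of the transgenic lines. A difference between a line and cc thus cannot be told apart from one that lies in those libraries.

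**Figure D1:**
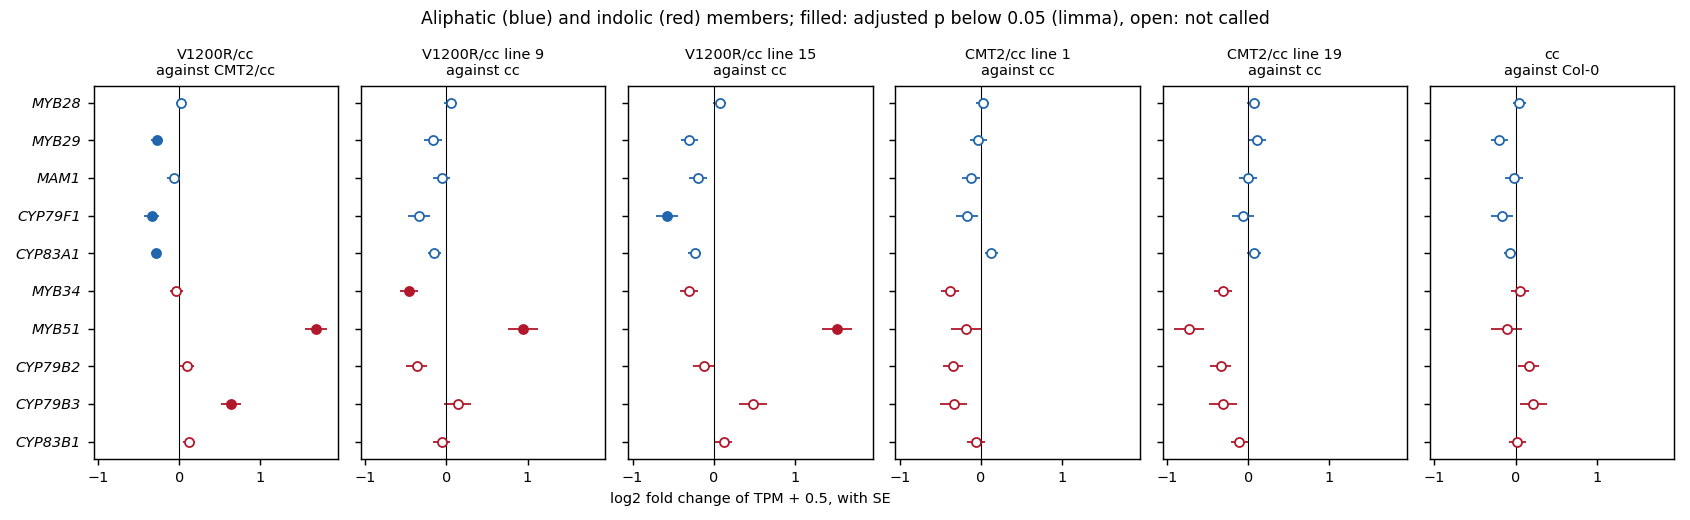
The log2 fold change of TPM + 0.5 (horizontal axis, bars are SE) is plotted for the 10 members (vertical axis, aliphatic in blue, indolic in red) in 6 comparisons, filled where the adjusted p was below 0.05 in limma. MYB51 lies farthest right in V1200R/cc against CMT2/cc (1.69) and in V1200R/cc lines 9 (0.95) and 15 (1.52) against cc, and no point is filled for the CMT2/cc lines or for cc against Col-0.

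Of the aliphatic regulators, MYB28 (AT5G61420, chromosome 5, 24689069 to 24691187, minus strand), the main activator of the branch, varied little. It had 62.8 and 67.05 TPM in V1200R/cc line 9, 63.7 and 68.2 TPM in line 15, 61.7 and 65.2 TPM in CMT2/cc line 1, 66.7 and 64.4 TPM in line 19, 60.9 and 64.2 TPM in cc, and 55.6 and 66.0 TPM in Col-0. The 4 V1200R/cc libraries overlapped with the 4 of CMT2/cc, with cc and with Col-0, and V1200R/cc differed from CMT2/cc by 0.02 ± 0.06 on the log2 scale (SE, limma adjusted p = 0.84), with a 95% interval of -0.11 to 0.15.

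MYB29 (AT5G07690, chromosome 5, 2446669 to 2448584, plus strand) has a supporting role in the same branch. It had 20.2 and 20.7 TPM in V1200R/cc line 9, 16.6 and 20.8 TPM in line 15, 22.5 and 22.5 TPM in CMT2/cc line 1, 24.3 and 25.4 TPM in line 19, 21.2 and 25.0 TPM in cc, and 26.3 and 26.7 TPM in Col-0. The 4 V1200R/cc libraries were the lowest of the 12 and Col-0 was the highest group. MYB29 fell in V1200R/cc against CMT2/cc by 0.27 on the log2 scale, with an SE of 0.08 (adjusted p = 0.026, limma), and in neither V1200R/cc line against cc was it called (adjusted p = 0.38 in line 9 and 0.097 in line 15). The call against CMT2/cc was lost when any of 7 single libraries was left out, with an adjusted p of up to 0.075.

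MAM1 (AT5G23010, chromosome 5, 7703041 to 7706973, plus strand), the synthase that lengthens the methionine side chain, was the most abundant member. It had 191 and 223 TPM in V1200R/cc line 9, 168 and 210 TPM in line 15, 199 and 198 TPM in CMT2/cc line 1, 216 and 213 TPM in line 19, 203 and 228 TPM in cc, and 228 and 207 TPM in Col-0. The 4 V1200R/cc libraries spanned the 4 of CMT2/cc, and V1200R/cc differed from CMT2/cc by -0.07 ± 0.08 on the log2 scale (SE, limma adjusted p = 0.57), with a 95% interval of -0.24 to 0.11. A listed transposable element overlaps MAM1 and was at 0 TPM in every library.

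CYP79F1 (AT1G16410, chromosome 1, 5608682 to 5612064, plus strand) makes aldoximes from chain-lengthened methionine. It had 53.2 and 65.6 TPM in V1200R/cc line 9, 43.6 and 57.6 TPM in line 15, 68.6 and 64.1 TPM in CMT2/cc line 1, 70.9 and 72.6 TPM in line 19, 70.2 and 80.2 TPM in cc, and 88.0 and 80.4 TPM in Col-0. V1200R/cc held the 3 lowest libraries, and its highest library lay above 1 CMT2/cc library. CYP79F1 fell by 0.34 on the log2 scale in V1200R/cc against CMT2/cc, with an SE of 0.10 (adjusted p = 0.028, limma), and by 0.58 in line 15 against cc, with an SE of 0.14 (adjusted p = 0.023, limma). Neither call held in a fit of only the libraries compared (adjusted p = 0.063 and 0.14). The call in line 15 was also lost without cc replicate 1, cc replicate 2 or line 15 replicate 1 (adjusted p between 0.069 and 0.15), and the one against CMT2/cc without any of 6 single libraries (adjusted p between 0.052 and 0.096). CYP79F2 is a tandem copy of CYP79F1, so the division of reads between the pair is uncertain.

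CYP83A1 (AT4G13770, chromosome 4, 7990429 to 7992429, minus strand) converts the aliphatic aldoximes. It had 153 and 167 TPM in V1200R/cc line 9, 139 and 163 TPM in line 15, 200 and 187 TPM in CMT2/cc line 1, 187 and 185 TPM in line 19, 178 and 176 TPM in cc, and 195 and 177 TPM in Col-0. All 4 V1200R/cc libraries were below the other 8. CYP83A1 fell by 0.29 on the log2 scale in V1200R/cc against CMT2/cc, with an SE of 0.06 (adjusted p = 0.0054, limma), and was not called in line 9 (adjusted p = 0.30) or line 15 (adjusted p = 0.089) against cc. The call against CMT2/cc held with each library left out in turn.

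**Figure D2:**
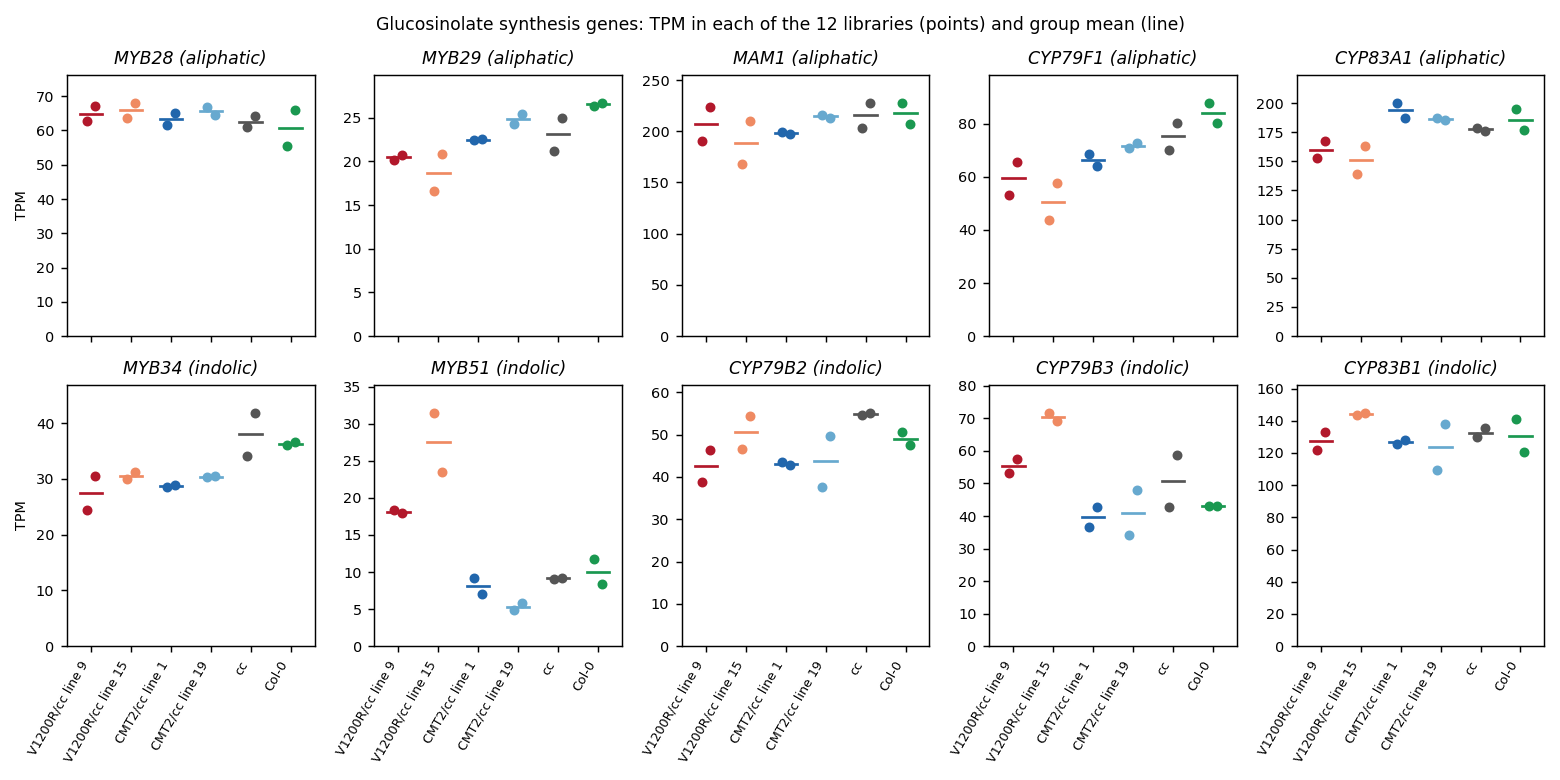
TPM (vertical axes, from 0, a scale for each gene) is plotted for each of the 10 members in the 2 libraries (points) and as the mean (line) of each of the 6 groups. MYB51 lies between 17.9 and 31.5 TPM in the 4 V1200R/cc libraries and between 4.90 and 11.7 TPM in the other 8, CYP83A1 and MYB29 are lowest in the V1200R/cc libraries, and MYB28 is level across the groups.

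Of the indolic regulators, MYB34 (AT5G60890, chromosome 5, 24494291 to 24496371, plus strand) activates indolic synthesis and is best known from roots. It had 24.4 and 30.5 TPM in V1200R/cc line 9, 29.9 and 31.2 TPM in line 15, 28.6 and 29.0 TPM in CMT2/cc line 1, 30.4 and 30.4 TPM in line 19, 34.1 and 41.9 TPM in cc, and 36.0 and 36.5 TPM in Col-0. All 8 transgenic libraries lay below the 4 libraries of cc and Col-0. MYB34 fell in V1200R/cc line 9 against cc by 0.46 on the log2 scale, with an SE of 0.11 (adjusted p = 0.033, limma). The log2 differences from cc were -0.30 in V1200R/cc line 15 (adjusted p = 0.11), -0.39 in CMT2/cc line 1 (adjusted p = 0.10) and -0.31 in CMT2/cc line 19 (adjusted p = 0.23), none of them called. V1200R/cc differed from CMT2/cc by -0.03 ± 0.08 on the log2 scale (SE, limma adjusted p = 0.79). The call in line 9 was lost without any of 8 single libraries, at an adjusted p of 0.051 in 6 of these, 0.19 without cc replicate 2 and 0.21 without line 9 replicate 1.

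MYB51 (AT1G18570, chromosome 1, 6389399 to 6391386, plus strand) activates indolic synthesis mainly in shoots and is known to respond to pathogens. It had 18.3 and 17.9 TPM in V1200R/cc line 9, 31.5 and 23.5 TPM in line 15, 9.18 and 7.004 TPM in CMT2/cc line 1, 4.90 and 5.76 TPM in line 19, 9.10 and 9.21 TPM in cc, and 11.7 and 8.36 TPM in Col-0. Every V1200R/cc library was above every other library. MYB51 rose in V1200R/cc against CMT2/cc by 1.69 ± 0.13 on the log2 scale (SE, limma adjusted p = 3.4e-05), with a 95% interval of 1.39 to 1.99. Against cc it rose by 0.95 ± 0.19 in line 9 (adjusted p = 0.014) and by 1.52 ± 0.19 in line 15 (adjusted p = 0.0008). In CMT2/cc its log2 difference from cc was -0.18 ± 0.19 in line 1 (adjusted p = 0.71) and -0.73 ± 0.19 in line 19 (adjusted p = 0.084).

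By mean TPM (± SD, n = 2), the order of MYB51 was V1200R/cc line 15 (27.5 ± 5.63), V1200R/cc line 9 (18.1 ± 0.27), Col-0 (10.0 ± 2.39), cc (9.15 ± 0.080), CMT2/cc line 1 (8.09 ± 1.54) and CMT2/cc line 19 (5.33 ± 0.61). Col-0, cc and CMT2/cc line 1 did not differ beyond the spread of their libraries. Lines 15 and 9 did not overlap, and their difference of 0.58 ± 0.19 on the log2 scale was not called (adjusted p = 0.65, limma), nor was that of -0.55 ± 0.19 between CMT2/cc lines 19 and 1 (adjusted p = 0.62). The rises against CMT2/cc and in line 15 against cc were called with each library left out in turn. The rise in line 9 was not called without any 1 of its 2 libraries or of the 2 cc libraries (adjusted p between 0.068 and 0.094). No listed feature overlaps MYB51, and the nearest listed transposable element is 7932 bases upstream and was at 0 TPM in every library.

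Some marker lists for stress and tissues moved with the same contrast as MYB51, in which 13.6% of all features were called higher and 13.9% lower. Of 8 rapid stress genes, 6 were called higher in V1200R/cc against CMT2/cc, with a summed level of 247.8 to 413.8 TPM in V1200R/cc, 76.9 to 116.6 TPM in CMT2/cc, 141.3 to 167.1 TPM in cc and 141.1 to 169.6 TPM in Col-0. WRKY33, a defence regulator of that list, had 94.7 and 90.1 TPM in V1200R/cc line 9 and 163 and 130 TPM in line 15, against 34.2 and 34.9 TPM in CMT2/cc line 1, 30.2 and 38.7 TPM in line 19, 50.9 and 57.3 TPM in cc, and 56.5 and 47.0 TPM in Col-0. Of 10 green shoot markers, 6 were called lower and none higher. Those called lower were RBCS1A, RBCS1B, RBCS2B, RBCS3B, GAPA and CA1. LHCB1.3 (log2 fold change 0.15), LHCB3 (0.08) and LHCA1 (0.06) leaned higher and PRK (-0.07) lower, none of them called. The list thus did not move as a whole. Its sums were 63330.2 to 65972.6 TPM in V1200R/cc, 69654.9 to 75201.9 TPM in CMT2/cc, 70032.8 to 71328.5 TPM in cc and 65995.1 to 71787.7 TPM in Col-0. Of 8 root markers, 1 was called higher and 1, IRT1, lower, and without IRT1 the sums were 126.8 to 150.0 TPM in V1200R/cc and 116.4 to 140.8 TPM in CMT2/cc. Of 4 dry seed genes tested, 3 were called higher, with sums of 20.26 and 30.44 TPM in V1200R/cc line 15 and 1.13 and 3.82 TPM in line 9, against 0.09 to 4.06 TPM in CMT2/cc, so only line 15 lay above the CMT2/cc range, and the transgene vector itself carries OLE1 sequence. The part of these lists in the members' results was not tested.

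The tryptophan-converting enzymes CYP79B2 and CYP79B3 are near copies of each other, and both make indole-3-acetaldoxime. CYP79B2 (AT4G39950, chromosome 4, 18525042 to 18527602, plus strand) had 38.9 and 46.3 TPM in V1200R/cc line 9, 46.6 and 54.4 TPM in line 15, 43.5 and 42.8 TPM in CMT2/cc line 1, 37.7 and 49.6 TPM in line 19, 54.6 and 55.2 TPM in cc, and 50.5 and 47.6 TPM in Col-0. The cc libraries were the highest, and the 4 V1200R/cc libraries overlapped with the 4 of CMT2/cc, while the lines 9 and 15 of V1200R/cc did not overlap. V1200R/cc differed from CMT2/cc by 0.10 ± 0.09 on the log2 scale (SE, limma adjusted p = 0.48), with a 95% interval of -0.11 to 0.30.

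CYP79B3 (AT2G22330, chromosome 2, 9488413 to 9491404, plus strand) had 53.2 and 57.6 TPM in V1200R/cc line 9, 71.8 and 69.2 TPM in line 15, 36.8 and 42.8 TPM in CMT2/cc line 1, 34.0 and 47.9 TPM in line 19, 42.9 and 58.9 TPM in cc, and 43.0 and 43.2 TPM in Col-0. The V1200R/cc libraries were above all CMT2/cc libraries, while cc replicate 2 lay above both libraries of line 9. CYP79B3 rose in V1200R/cc against CMT2/cc by 0.64 ± 0.12 on the log2 scale (SE, limma adjusted p = 0.0044), with a 95% interval of 0.36 to 0.91, and was not called against cc in line 9 (0.14 ± 0.17, adjusted p = 0.67) or line 15 (0.48 ± 0.17, adjusted p = 0.097). The call against CMT2/cc held with each library left out in turn. The 22 bases shared by the CYP79B2 and CYP79B3 promoters stand before one gene that was called in this comparison and one that was not.

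CYP83B1 (AT4G31500, chromosome 4, 15273410 to 15275404, minus strand), which converts the indolic aldoxime, was the most abundant indolic member. It had 122 and 133 TPM in V1200R/cc line 9, 143 and 145 TPM in line 15, 126 and 128 TPM in CMT2/cc line 1, 109 and 138 TPM in line 19, 130 and 135 TPM in cc, and 141 and 120 TPM in Col-0. Line 15 was the highest group, and its libraries were above those of every other group. V1200R/cc differed from CMT2/cc by 0.12 ± 0.07 on the log2 scale (SE, limma adjusted p = 0.29), with a 95% interval of -0.05 to 0.29.

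Added up, the 5 aliphatic members came to between 430.8 and 544.0 TPM in V1200R/cc, against 536.7 to 565.5 TPM in CMT2/cc, 534.1 to 573.9 TPM in cc and 557.1 to 592.5 TPM in Col-0. The 5 indolic members came to between 256.3 and 323.4 TPM in V1200R/cc, against 216.4 to 271.7 TPM in CMT2/cc, 270.4 to 300.5 TPM in cc and 256.2 to 282.3 TPM in Col-0. In both branches the sums of V1200R/cc and CMT2/cc overlapped.

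The rest of the pathway was read from a list of 65 further genes, of which 63 were tested. In V1200R/cc against CMT2/cc, 12 of these were called higher and 24 lower, against 13.6% and 13.9% of all features. The median log2 fold change was -0.17, against -0.02 over all features. The counts by pathway group below are to be read beside the same shares of all features. The genes AOP3, of the aliphatic branch, and MYC2, a jasmonate regulator, were listed at 0 TPM in all 12 libraries and not tested. The MYC2 gene overlaps another listed feature, and the levels of overlapping genes are uncertain here. Its 0 TPM therefore does not show that MYC2 was not expressed.

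Among 21 tested aliphatic genes other than the members, 12 were called lower and 2 higher (GSTU20 and FMO-GS-OX4), with a median of -0.27. SOT17, a sulfotransferase of the last core step, had 24.5 and 27.3 TPM in V1200R/cc line 9 and 22.4 and 25.1 TPM in line 15, against 38.4 and 36.6 TPM in line 1 of CMT2/cc and 35.6 and 40.2 TPM in line 19, and 33.2 and 37.6 TPM in cc. It fell by 0.59 on the log2 scale against CMT2/cc, with an SE of 0.07 (adjusted p = 0.00025, limma), and each V1200R/cc line was also called lower than cc. SOT18, of the same step, fell by 0.41, with an SE of 0.04 (adjusted p = 0.00018). FMO-GS-OX1, which oxidises the side chain, fell by 0.60, with an SE of 0.08 (adjusted p = 0.00066). MYB76, the third MYB of the branch, was at 1.33 to 1.61 TPM in V1200R/cc and 1.46 to 2.50 TPM in CMT2/cc and was not called (-0.35 ± 0.16, adjusted p = 0.14).

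Among 11 tested indolic genes other than the members, 4 were called, all of them higher and all by at least 2-fold. Of all features, 13.6% were called higher, and 3.1% were called by at least 2-fold in either direction. The median of the 11 genes was 0.23. IGMT1, a methyltransferase that completes methoxylated indole glucosinolates, had 29.2 and 29.5 TPM in V1200R/cc line 9 and 42.2 and 31.5 TPM in line 15, against 16.4 and 13.9 TPM in CMT2/cc line 1, 11.3 and 13.9 TPM in line 19, 21.9 and 18.1 TPM in cc, and 29.1 and 21.9 TPM in Col-0. All V1200R/cc libraries were above those of CMT2/cc, and line 9 lay close to Col-0 replicate 1. IGMT1 rose by 1.22 ± 0.13 on the log2 scale against CMT2/cc (SE, limma adjusted p = 0.00016). Against cc it was called higher in V1200R/cc line 15 (0.86 ± 0.18, adjusted p = 0.013) but not in line 9 (0.55 ± 0.18, adjusted p = 0.096). The CMT2/cc lines leaned below cc (-0.38 in line 1 and -0.65 in line 19), neither called.

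The other 3 genes called in this group were chosen for naming after their values were seen. CYP81F2, the hydroxylase that acts before the methyltransferases, had 14.1 and 13.4 TPM in V1200R/cc line 9 and 23.1 and 14.7 TPM in line 15, against 8.07 and 4.68 TPM in CMT2/cc line 1, 3.72 and 4.75 TPM in line 19, 11.5 and 7.37 TPM in cc, and 10.5 and 8.01 TPM in Col-0. It rose by 1.55 ± 0.21 on the log2 scale against CMT2/cc (SE, limma adjusted p = 0.00075) and was not called against cc in line 9 (adjusted p = 0.30) or line 15 (adjusted p = 0.063). IGMT2, close to IGMT1 in sequence, rose by 1.08 ± 0.17 (adjusted p = 0.0020), and IGMT5 by 1.04 ± 0.18 (adjusted p = 0.0024). MYB122, the third MYB of the branch, was between 0.35 and 0.70 TPM in all libraries and was not called (0.23 ± 0.15, adjusted p = 0.30). Of the other modifying hydroxylases, CYP81F1 (-0.49, adjusted p = 0.27), CYP81F3 (0.13, adjusted p = 0.65) and CYP81F4 (0.27, adjusted p = 0.066) were not called, and neither was SOT16, the sulfotransferase of the indolic core.

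**Figure D3:**
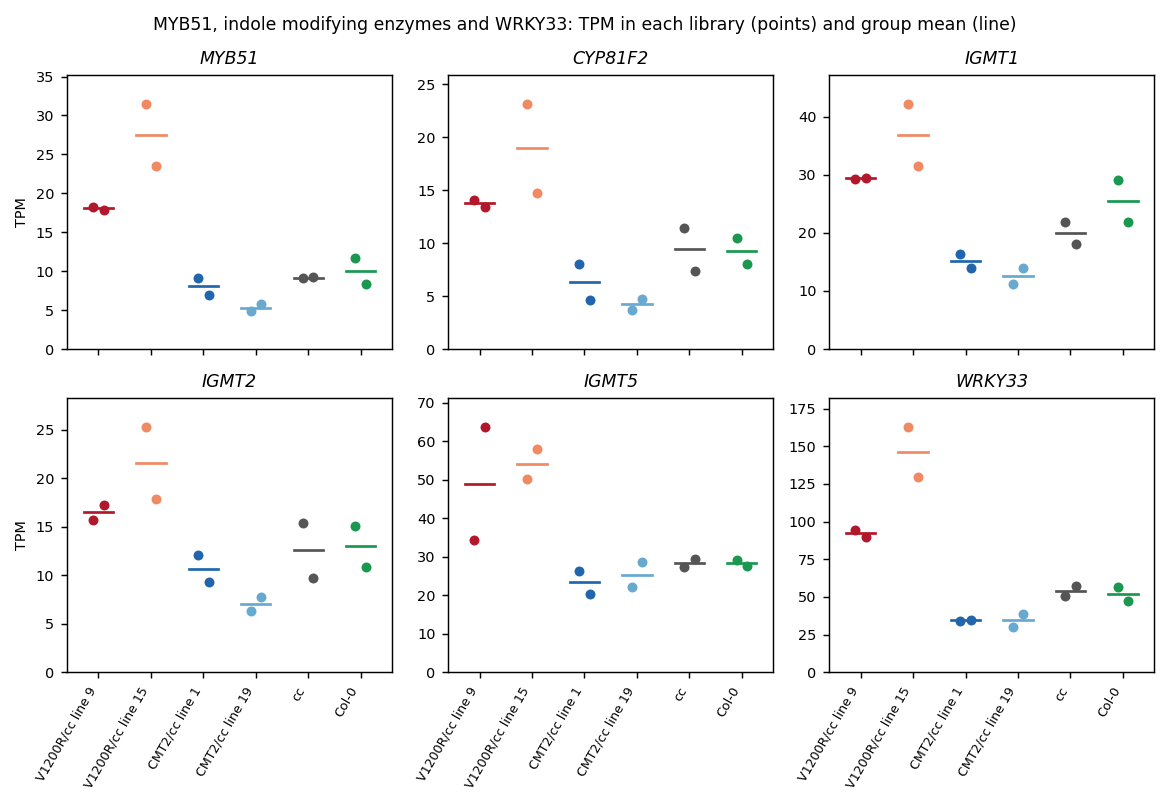
TPM (vertical axes, from 0, a scale for each gene) in the 2 libraries (points) and as the mean (line) of each of the 6 groups, for MYB51, the indole-modifying genes CYP81F2, IGMT1, IGMT2 and IGMT5, and the stress regulator WRKY33. All 4 V1200R/cc libraries lie above all 4 CMT2/cc libraries in each panel, for CYP81F2 at 13.4 to 23.1 TPM against 3.72 to 8.07 TPM. The genes shown were chosen among those higher in V1200R/cc, so this separation follows from the choice.

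In the parts of the pathway that both branches use, UGT74B1, a glucosyltransferase of the core, was called lower (-0.26 ± 0.05, adjusted p = 0.0073) among 3 shared core genes. SUR1, the lyase before it, was at 39.6 TPM in V1200R/cc line 9 replicate 1 and between 79.1 and 98.9 TPM in the other 11 libraries, and was not called. It overlaps listed transposable elements, one of which was at 6.65 TPM in that library. Among 6 genes that activate sulfate or, as APR1, APR2 and APR3, reduce it, 4 were called lower and none higher, with a median of -0.31. GTR2, a glucosinolate transporter, fell by 0.36 on the log2 scale against CMT2/cc, with an SE of 0.04 (adjusted p = 0.00035, limma), and GTR1 was not called. Of 7 other regulators tested, 3 were called higher and 2 lower, and MYC4, which works with the MYB factors, rose by 0.41 ± 0.05 (adjusted p = 0.00051). None of 3 camalexin genes was called by limma, and none had an unadjusted p below 0.05.

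**Figure D4:**
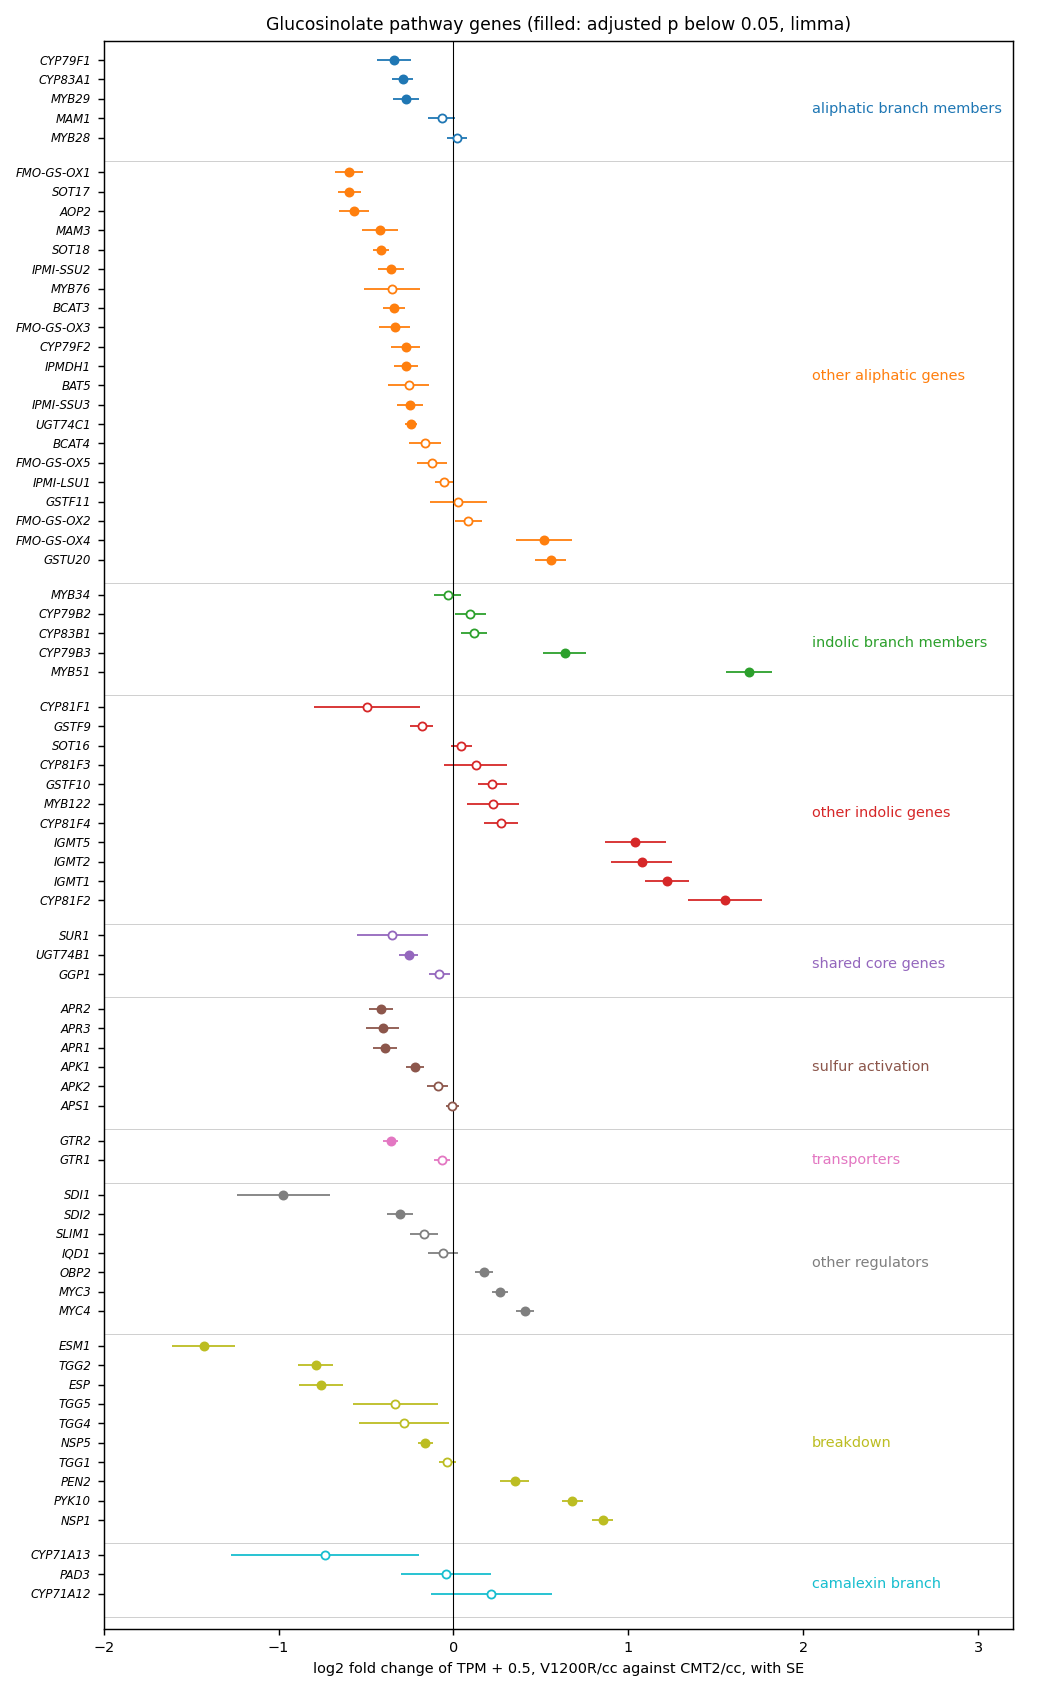
Log2 fold change of TPM + 0.5 in V1200R/cc against CMT2/cc (horizontal axis, bars are SE) for the 10 members and the 63 other pathway genes tested, 1 per row and grouped by role, filled where the adjusted p was below 0.05 in limma. Of the other genes, 12 of 21 aliphatic ones are filled left of 0, 4 of 11 indolic ones are filled right of 1, and ESM1 lies farthest left (-1.43).

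Of 10 breakdown genes, 3 were called higher and 4 lower. ESM1, which shifts breakdown toward isothiocyanates, had 37.5 and 45.1 TPM in V1200R/cc line 9, 28.1 and 22.4 TPM in line 15, 88.1 and 49.5 TPM in CMT2/cc line 1, 136 and 98.4 TPM in line 19, 272 and 215 TPM in cc, and 194 and 186 TPM in Col-0. All 8 transgenic libraries were below the libraries labelled cc and Col-0, and those of V1200R/cc were lowest. Against cc, ESM1 fell by 2.54 on the log2 scale in V1200R/cc line 9 (SE 0.26, adjusted p = 0.00023, limma), by 3.24 in line 15 (SE 0.26, adjusted p = 4.4e-05) and by 1.86 in CMT2/cc line 1 (SE 0.26, adjusted p = 0.0037). Line 19 was at -1.06 ± 0.26 against cc (adjusted p = 0.066). V1200R/cc was lower than CMT2/cc by a log2 fold change of -1.43 ± 0.18 (adjusted p = 0.00051).

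NSP1, a nitrile specifier protein, had 316 and 356 TPM in V1200R/cc line 9 and 432 and 388 TPM in line 15, against 223 and 206 TPM in CMT2/cc line 1, 184 and 209 TPM in line 19, 256 and 281 TPM in cc, and 333 and 338 TPM in Col-0. It rose by 0.85 ± 0.06 on the log2 scale against CMT2/cc (SE, limma adjusted p = 1.9e-05), with line 9 at about the level of Col-0. PYK10, a root glucosidase with myrosinase activity, rose by 0.68 ± 0.06 (adjusted p = 5.4e-05). TGG2, a classical myrosinase, had 310 and 293 TPM in V1200R/cc line 9 and 283 and 317 TPM in line 15, against 452 and 576 TPM in CMT2/cc line 1, 549 and 507 TPM in line 19, 342 and 450 TPM in cc, and 646 and 698 TPM in Col-0. It fell by 0.79 on the log2 scale in V1200R/cc against CMT2/cc (SE 0.10, adjusted p = 0.00048) and by 0.78 in cc against Col-0 (SE 0.14, adjusted p = 0.014). TGG1, the other classical myrosinase, also fell in cc against Col-0 (-0.58 ± 0.07, limma adjusted p = 0.0011). TGG2 and TGG1 were the only 2 of the 63 genes called in that comparison, where 4.44% of all features were called.

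**Figure D5:**
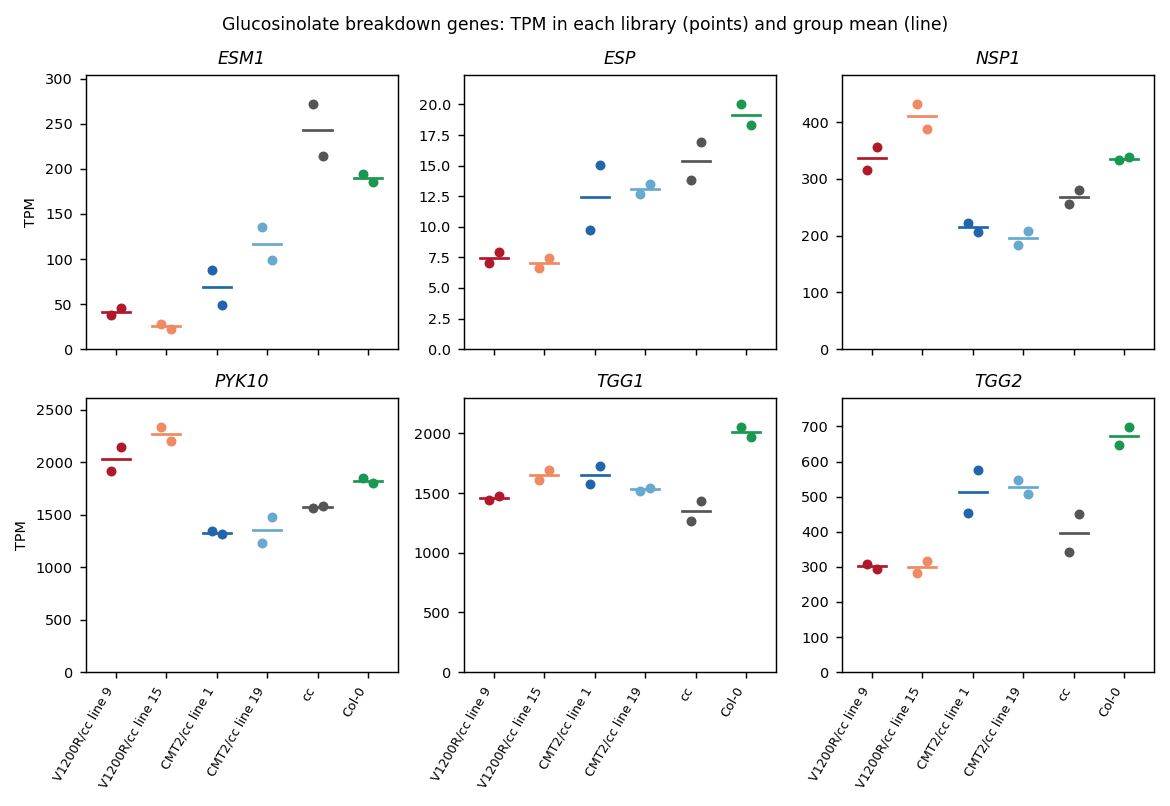
TPM (vertical axes, from 0, a scale for each gene) in the 2 libraries (points) and as the mean (line) of each of the 6 groups, for 6 glucosinolate breakdown genes. ESM1 is at 22.4 to 45.1 TPM in V1200R/cc and at 215 and 272 TPM in cc, all V1200R/cc points of NSP1 and PYK10 lie above those of CMT2/cc, and TGG1 and TGG2 are highest in Col-0.

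As a description, features were ranked by Pearson's r over the 12 libraries with the mean z-score of each branch, among 15169 features outside all lists with a mean of at least 5 TPM. Closest to the aliphatic mean were AT5G51830 (r = 0.92), MIPS3 (0.91), AT1G21440 (0.91), AT1G12380 (0.90) and AT1G67750 (0.89). The members themselves stood at 0.92 for MYB29, 0.91 for CYP79F1, 0.88 for MAM1, 0.82 for CYP83A1 and 0.04 for MYB28, so MYB28 did not vary with its branch. Closest to the indolic mean were MHX (0.93), AT2G41160 (0.93), COR413-PM1 (0.93), NSH3 (0.93) and AT2G12400 (0.92). Of the members, CYP83B1 stood at 0.89, CYP79B2 at 0.83, CYP79B3 at 0.82, MYB51 at 0.64 and MYB34 at 0.48. Each member is part of the branch mean it was compared with, which raises its r. The r of members and of outside features are therefore not on the same footing. The 12 points share 6 groups of 2 libraries and the same TPM scaling.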

How the data were processed

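The 12 libraries were grouped by construct and line from their titles. Reads had been trimmed (fastp) and mapped to TAIR10 (HISAT2), and the gene tables deposited by the authors hold the coverage, FPKM and TPM that StringTie wrote. The strand setting and the handling of reads with several alignments are not given in the sources used here, so near-identical or overlapping genes are uncertain. TPM of the 4 identifiers given more than once were added. Depth was derived from coverage and FPKM, and FPKM as deposited by the authors was also an alternative scale.

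The deposited TPM are not counts, so the count test named for these data was replaced by limma 3.58.1 in R 4.3.3 on log2(TPM + 0.5), with a trend and one model of 6 groups. A pseudocount of this kind understates changes of low genes. A feature was tested if 2 or more libraries had 0.5 TPM or more of it. The p-values of each comparison were adjusted by the Benjamini-Hochberg method over all features, and those below 0.05 were called. Tables and figures used Python 3.11.15, pandas 2.3.3 and matplotlib 3.10.9.

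The members and gene lists were chosen with earlier results of these data known. Lists were written from general knowledge. Besides the members, MYB76, MYB122, CMT2 and CMT3, the text names the 10 other pathway genes with the smallest adjusted p in any of the comparisons with cc, with Col-0 or between constructs; further genes were chosen after their values were seen. Alternatives were pseudocounts of 0.1 and 1, no filter, a filter on a mean of 1 TPM, quantile normalization, FPKM, a fit of only the libraries compared, pooled lines, a 2-fold minimum, the replicate number as a block and each library left out.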

Additional observations from a re-analysis of the deposited data

How the results depend on the processing

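No call turned its direction in any of 838 recomputed values, of which 737 kept their call and 101 lost it. These cover calls of the members, of the 10 pathway genes named by smallest adjusted p, and of CYP81F2, IGMT2 and IGMT5. Other pathway calls are not in this count. The 5 members called in V1200R/cc against CMT2/cc became 1 with a 2-fold minimum and 1 with no filter on low values, and 3 to 5 with single libraries left out. The 2 called in V1200R/cc line 9 against cc became 0 with a 2-fold minimum, 0 with no filter, 1 in a fit of only the libraries compared, and 0 to 2 with single libraries left out. The 2 called in line 15 against cc became 1 under each of these 3 settings, and 1 to 4 with single libraries left out, with 4 without line 15 replicate 2. Without the filter 69056 features were tested, against 23614 with it. MYB51 in V1200R/cc against CMT2/cc and in line 15 against cc was called under every alternative listed. CYP83A1 and CYP79B3 against CMT2/cc lost their calls, apart from the 2-fold minimum, only with no filter (adjusted p = 0.054 and 0.06). In the 3 other comparisons with cc or Col-0, and in the 2 between lines of one construct, no member was called under any of these alternatives.

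The correlation of deviations between libraries of the same replicate number was above 0.1 in 6 of 15 pairs of groups (r from -0.13 to 0.229), all 6 among Col-0, cc, CMT2/cc line 1 and V1200R/cc line 15, so the numbers were not taken to pair the libraries across all groups. With the replicate number as a block, 6365 features were called in V1200R/cc against CMT2/cc, against 6488 without it, and the number of members called stayed at 5, at 2 in each V1200R/cc line and at 0 elsewhere.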

Other observations

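Within a library, CYP79B3 stood at 1.24 to 1.54 times the TPM of its near copy CYP79B2 in V1200R/cc, against 0.85 to 1.00 times in CMT2/cc, 0.79 to 1.07 times in cc and 0.85 to 0.91 times in Col-0, so the V1200R/cc ratios did not overlap with those of the other groups. MYB51 stood at 0.59 to 1.05 times the TPM of MYB34 in V1200R/cc, against 0.16 to 0.32 times in CMT2/cc, 0.22 to 0.27 times in cc and 0.23 to 0.33 times in Col-0. Both ratios were looked at after the values were seen and were not tested. The division of reads between the near copies CYP79B2 and CYP79B3 is uncertain.

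In a ranking by Pearson's r with MYB51 alone, added after the values were seen, PAL3 (0.99), MPK3 (0.98), EXO70B1 (0.98), AT1G63750 (0.98) and PIRL5 (0.98) came first among 15262 features, over the same 12 libraries. Of the listed genes, r was read only for ERF6 (0.97), WRKY33 (0.97), WRKY40 (0.96), CYP81F2 (0.95) and IGMT1 (0.94). All of these had higher mean TPM in the V1200R/cc lines than in the CMT2/cc lines, so their choice favoured a high r. The r of the other listed genes is not given. The points fall into 6 groups of 2 libraries, of which the V1200R/cc lines hold the 4 highest MYB51 values.

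The nearest listed transposable element lies from 0 bases (MAM1 and CYP83A1, which overlap one) to 29680 bases (CYP83B1) away from a member, and none of these elements was above 0.204 TPM in any library.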
